A study of Homo sapiens with 8 samples.

Results

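The UGT2B genes encode the family 2B UDP-glucuronosyltransferases, and the 7 described here are UGT2B4, UGT2B7, UGT2B10, UGT2B11, UGT2B15, UGT2B17 and UGT2B28. They were taken by symbol from a table of 26443 genes with values, in which the 7 symbols each have a row. The cells were C4-2B, a line of castration-resistant prostate cancer that descends from LNCaP, grown in medium with fetal bovine serum. The first group, Combination, received ENZ and EPZ6438 together for 7 days, and the labels give no separate doses for it. The second group received ENZ at 10 uM for 7 days, the third, called EPZ here, received EPZ6438 at 1 uM for 7 days, and the fourth received DMSO alone. ENZ commonly stands for enzalutamide, a drug that blocks androgen action. EPZ6438, also called tazemetostat, inhibits EZH2, the enzyme that methylates histone H3 to silence genes. Each of the 4 groups has 2 RNA-seq libraries, and all 8 come from this single line. Separate cultures are not stated for the 2 libraries of a group, so the p-values reflect the spread between libraries, which may be technical.

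UGT2B enzymes sit in the membrane of the endoplasmic reticulum and join glucuronic acid, taken from UDP-glucuronate, to steroids, bile acids and drugs, which makes them water-soluble and ready for export. In the prostate, UGT2B15 and UGT2B17 inactivate dihydrotestosterone, testosterone and androstanediol in this way, and androgens are known to lower the RNA of both genes in LNCaP cells. UGT2B28 also accepts androgens, UGT2B7 has a broad range of substrates, UGT2B10 acts mainly on nitrogen atoms of drugs, UGT2B4 acts on bile acids, and the substrates of UGT2B11 are poorly known.

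UGT2B15 and UGT2B11 moved in opposite directions in both single-agent comparisons below, so the 250 bases before their RefSeq start sites are shown, 5′ to 3′ along each gene. Both lie on the minus strand of chromosome 4 in GRCh38.p14, at chr4:68670653-68670902 for UGT2B15 and chr4:69214749-69214998 for UGT2B11. Capitals mark matches to 4 short motifs searched on both strands.
UGT2B15: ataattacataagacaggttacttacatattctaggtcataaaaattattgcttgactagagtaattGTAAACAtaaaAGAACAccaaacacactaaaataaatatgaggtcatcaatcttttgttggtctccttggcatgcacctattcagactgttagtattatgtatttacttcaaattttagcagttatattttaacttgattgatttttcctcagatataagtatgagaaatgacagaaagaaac
UGT2B11: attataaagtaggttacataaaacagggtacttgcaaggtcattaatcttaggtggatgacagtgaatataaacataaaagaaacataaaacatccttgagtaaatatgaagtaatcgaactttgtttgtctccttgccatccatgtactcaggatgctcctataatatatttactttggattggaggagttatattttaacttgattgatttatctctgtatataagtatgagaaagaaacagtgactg
The motifs were the forkhead cores TGTTTAC and TGTTTGC, the HNF1 core GTTAAT and the steroid response hexamer AGAACA. The UGT2B15 window holds TGTTTAC on the other strand, from position -183, and AGAACA from position -172, with no overlap between them. The UGT2B11 window holds none of the 4. RefSeq windows were matched for 4 of the 7 genes, and those of UGT2B10 and UGT2B7 hold none either. Among 27305 RefSeq windows of this length, TGTTTAC was present in 2.98%, TGTTTGC in 3.19%, GTTAAT in 6.22% and AGAACA in 12.4%. The UGT2B15 and UGT2B11 windows share 74.6% of their aligned bases, and those of UGT2B11 and UGT2B10 share 93.1%. A match describes these letters and is not evidence of a bound site.

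The 7 genes lie in 1 cluster of 988.83 kb on chromosome 4 (GENCODE 29, GRCh38), in the order UGT2B17, UGT2B15, UGT2B10, UGT2B7, UGT2B11, UGT2B28 and UGT2B4. UGT2B17 spans chr4:68537184-68568527 and UGT2B15 spans chr4:68646630-68670628, both on the minus strand. UGT2B11 spans chr4:69199951-69214731 on the minus strand, and UGT2B28 spans chr4:69280499-69295050 on the plus strand. UGT2B17 and UGT2B15 are therefore neighbours on the chromosome among these genes, and so are UGT2B11 and UGT2B28. UGT2B11 lies within the bounds of an antisense gene on the plus strand, AC111000.4, at chr4:69182100-69216766. The sources used here give no strand setting, so fragments of UGT2B11 and of that antisense gene cannot be told apart where their exons overlap. Overlap of the exons was not examined.

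Reads can be shared between these copies. UGT2B17 and UGT2B15 transcripts are identical at 91.1% of aligned bases, and UGT2B11 and UGT2B28 at 96.7%. Identity between the pairs is lower, at 79.6% to 82.7%. UGT2B10 is not a neighbour of UGT2B11 or UGT2B28 but is identical to them at 93.7% and 94.1% of aligned bases. A stretch of 50 bases of UGT2B17 occurs unchanged in another UGT2 gene or pseudogene in 27.8% of positions, and 27.5% for UGT2B15, 40.9% for UGT2B11 and 35.7% for UGT2B28. With stretches of 100 bases these shares are 12.7%, 12.7%, 9.3% and 5.71%. The sources used here do not give how the authors' counting treated such reads, so each single gene's value is uncertain to that extent and the sum over each pair is given below.

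**Figure D1:**
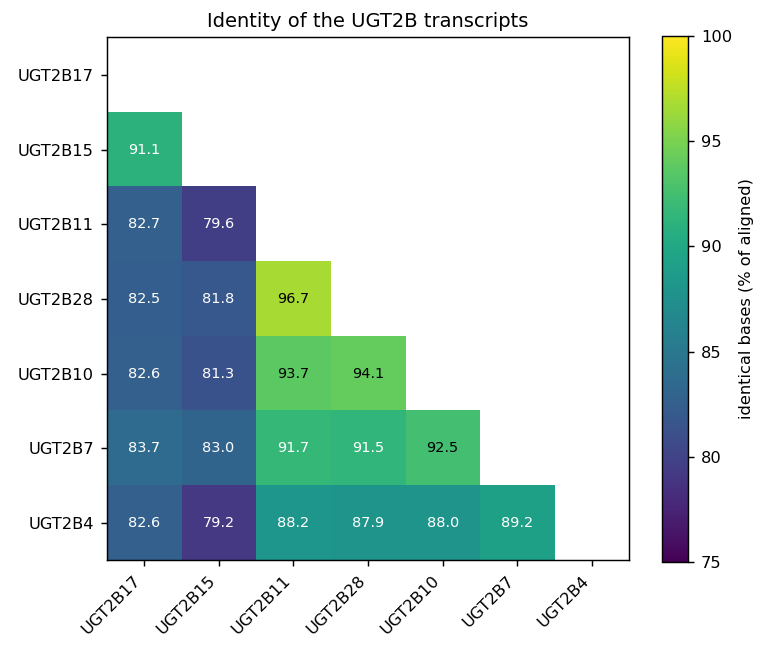
Identity of the UGT2B transcripts. Each square gives the percentage of aligned bases that are identical between the GENCODE 29 transcripts named on its row and column. UGT2B11 and UGT2B28 are the closest copies at 96.7%, and UGT2B17 and UGT2B15 share 91.1%.

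The deposited values are FPKM, the number of fragments per kilobase of a gene's length, scaled to the size of the library. Estimated depth ranged from 15400000 fragments in the first DMSO library to 24400000 in the first EPZ library. The cells carried all 10 prostate luminal markers examined at a mean of at least 1 FPKM, KLK3 among them. The liver is the main site of several UGT2B enzymes, and 1 of 8 hepatocyte markers reached that level, TTR, while ALB stayed at or below 0.0365 FPKM and FGB was listed at 0 in every library. The summed hepatocyte markers came to 4.84 to 5.07 FPKM in Combination, 0.971 to 1.12 in ENZ, 3.75 to 5.43 in EPZ and 0.999 to 1.55 in DMSO, and their part in the UGT2B values was not tested. One of 6 fibroblast markers, COL1A1, averaged 1 FPKM or more. The summed fibroblast markers came to 10.9 to 11.1 FPKM in Combination, 3.64 to 4.70 in ENZ, 3.04 to 3.09 in EPZ and 2.43 to 2.59 in DMSO, and their part in the UGT2B values of Combination was not tested. None of 5 leukocyte or 3 endothelial markers reached that mean. In bulk RNA, fewer cells expressing a gene and less RNA per cell cannot be told apart.

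Of the 7 genes, 4 were tested: UGT2B17, UGT2B15, UGT2B11 and UGT2B28, which had a mean of at least 1 FPKM over the 8 libraries. Their means over the 8 libraries were 1.48, 1.35, 1.41 and 1.28 FPKM. Each passed through the groups in which it was high and lay below 1 FPKM in others. The counts of changed genes and the medians below therefore describe these 4 genes and not the family. Because the filter favours genes with a high group, the distance of those medians from the medians of all tested genes is not a test. All 4 are low-level genes whose values rest on small numbers of fragments. The FPKM of each gene fall on evenly spaced steps, and 1 step is called a counting unit here. The steps of UGT2B11 and UGT2B28 imply gene lengths of 1708 and 1833 bases, beside annotated transcripts of 2088 and 1833 bases. Those of UGT2B17 and UGT2B15 imply 4148 and 4518 bases, beside annotated transcripts of 2077 bases each, and those of UGT2B10 imply 8235 bases beside 1931, so a unit there need not be a whole fragment. Levels of UGT2B17 and UGT2B15 are therefore not set against those of UGT2B11 and UGT2B28. A length that is the same in all libraries cancels in the ratio of 1 gene between libraries. Reads shared with a copy would not cancel, and how they were counted is not known.

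UGT2B17, which inactivates testosterone and dihydrotestosterone, was highest in ENZ. It had 0.663 and 0.943 FPKM in Combination, 4.64 and 4.34 FPKM in ENZ, 0.0889 and 0.0864 FPKM in EPZ, against 0.516 and 0.546 FPKM in DMSO. The 4 groups do not overlap: both ENZ libraries lie far above all others, Combination lies above DMSO, and both EPZ libraries lie lowest. In counting units these values are 53 and 64 in Combination, 371 and 392 in ENZ, 9 and 8 in EPZ, against 33 and 46 in DMSO. Group means were 0.803 ± 0.198 FPKM in Combination, 4.49 ± 0.216 in ENZ, 0.0876 ± 0.00178 in EPZ and 0.531 ± 0.0217 in DMSO (SD, n = 2 each).

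UGT2B15, the dihydrotestosterone and androstanediol enzyme, was also highest in ENZ. It had 0.253 and 0.230 FPKM in Combination, 3.32 and 4.13 FPKM in ENZ, 0.190 and 0.396 FPKM in EPZ, against 1.16 and 1.13 FPKM in DMSO. Combination and EPZ overlap at the low end, DMSO lies above both, and ENZ lies above DMSO. The units number 22 and 17 in Combination, 289 and 407 in ENZ, 21 and 40 in EPZ, against 81 and 104 in DMSO. The means were 0.241 ± 0.0160 FPKM in Combination, 3.73 ± 0.575 in ENZ, 0.293 ± 0.146 in EPZ and 1.15 ± 0.0198 in DMSO (SD, n = 2 each). Its second EPZ library lies about as far above the first as the level of the first itself.

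UGT2B11 had its highest values in EPZ. It had 0.334 and 0.250 FPKM in Combination, 0.486 and 0.484 FPKM in ENZ, 2.95 and 3.36 FPKM in EPZ, against 1.63 and 1.82 FPKM in DMSO. No group overlaps another, with Combination lowest, then ENZ, then DMSO, then EPZ. The values rest on 11 and 7 units in Combination, 16 and 18 in ENZ, 123 and 128 in EPZ, against 43 and 63 in DMSO. By exact Poisson intervals at 95%, which cover counting error only, the 7 units of the second Combination library allow 2.81 to 14.4, and the 16 units of the first ENZ library allow 9.15 to 26.0. Those intervals overlap, while the 43 units of the first DMSO library allow 31.1 to 57.9. The means were 0.292 ± 0.0591 FPKM in Combination, 0.485 ± 0.00182 in ENZ, 3.15 ± 0.287 in EPZ and 1.72 ± 0.131 in DMSO (SD, n = 2 each).

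UGT2B28, a further androgen-conjugating enzyme and the closest copy of UGT2B11, followed a similar order. It had 0.255 and 0.167 FPKM in Combination, 0 and 0.225 FPKM in ENZ, 2.32 and 3.20 FPKM in EPZ, against 1.87 and 2.18 FPKM in DMSO. Combination and ENZ overlap at the low end, and EPZ and DMSO lie well above both without overlapping each other. The units number 9 and 5 in Combination, 0 and 9 in ENZ, 104 and 131 in EPZ, against 53 and 81 in DMSO. At the depth of the first ENZ library 3 units would be 0.0849 FPKM, the floor used here for a count of 0. The means were 0.211 ± 0.0622 FPKM in Combination, 2.76 ± 0.620 in EPZ and 2.03 ± 0.214 in DMSO (SD, n = 2 each).

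**Figure D2:**
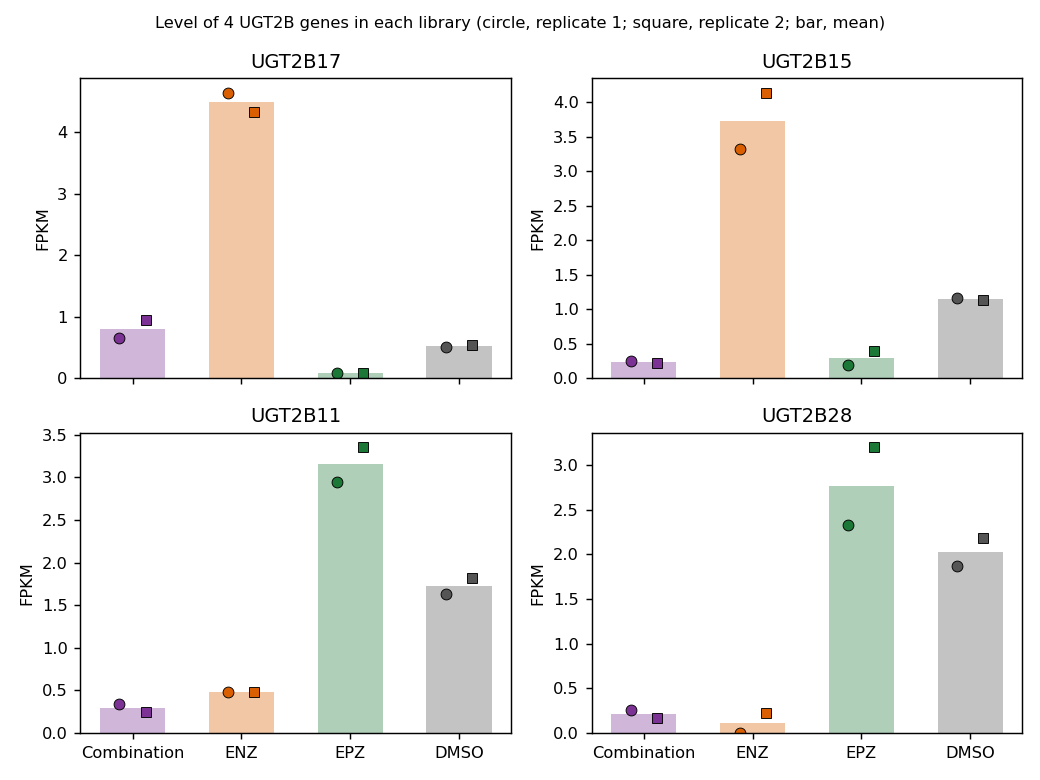
FPKM of UGT2B17, UGT2B15, UGT2B11 and UGT2B28 in the 4 groups. Symbols are single libraries (circle, replicate 1; square, replicate 2) and bars are group means of 2 libraries. UGT2B17 and UGT2B15 are highest in ENZ at means of 4.49 and 3.73 FPKM, while UGT2B11 and UGT2B28 are highest in EPZ at 3.15 and 2.76 FPKM.

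The other 3 genes were near the floor in every library and fell below the filter of the tests given below. UGT2B10, known mainly from the liver, had 0.0189 and 0.0148 FPKM in Combination, 0.0504 and 0.0501 in ENZ, 0.0249 and 0.0163 in EPZ, against 0.0945 and 0.108 in DMSO. Both DMSO libraries lie above the other 6, on 12 and 18 units against at most 9 elsewhere. UGT2B7 reached at most 0.0729 FPKM and UGT2B4 at most 0.0267 FPKM, on no more than 3 units in any library. In a limma fit with no filter on low values, UGT2B10 was lower than in DMSO in every treated group. Its change was -0.11 in Combination on the log2(FPKM + 1) scale (limma adjusted p = 0.00147). It was -0.068 in ENZ (limma adjusted p = 0.0268) and -0.11 in EPZ (limma adjusted p = 0.00516). So few units leave the sizes imprecise, and a unit here need not be a whole fragment. Exact Poisson intervals of counting error take a unit as 1 whole fragment and are too narrow where it is less. On that footing the 12 units of the first DMSO library allow 6.20 to 21.0. The first Combination, ENZ and EPZ libraries allow 0.619 to 8.77, 3.45 to 15.8 and 1.62 to 11.7, and each overlaps it. The 18 units of the second DMSO library allow 10.7 to 28.4, and among those first treated libraries only the Combination interval lies wholly below that range. Of the second libraries, Combination (0.242 to 7.22) and EPZ (0.619 to 8.77) also lie below it, and ENZ (4.12 to 17.1) overlaps it. In the same limma fit UGT2B7 was lower in Combination than in ENZ (-0.089, adjusted p = 0.0249), on 0 and 0 units in Combination against 2 and 3 in ENZ. No comparison passed for UGT2B4, and so few units leave little room to detect one.

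To ask how blocking androgen action changed these genes, ENZ was compared with DMSO. UGT2B17 and UGT2B15 rose and UGT2B11 and UGT2B28 fell. The mean FPKM ratio of ENZ to DMSO was 8.45 for UGT2B17, 3.24 for UGT2B15, 0.281 for UGT2B11 and 0.0556 for UGT2B28. On the log2(FPKM + 1) scale, which understates changes of low genes, the change was 1.84 for UGT2B17 (SE 0.106, limma adjusted p = 1.06e-06) and 1.13 for UGT2B15 (SE 0.119, limma adjusted p = 5.02e-05). It was -0.88 for UGT2B11 (SE 0.0987, limma adjusted p = 7.37e-05) and -1.45 for UGT2B28 (SE 0.143, limma adjusted p = 3.41e-05), whose 2 ENZ libraries hold 0 and 9 units. Thus 2 of the 4 tested genes rose and 2 fell, where 27.9% of all 11874 tested genes were called higher and 28.8% lower. The median log2 change of the 4 was 0.13, against 0.0049 over all tested genes, and it hides changes of both signs. With a pseudocount of 0.1 in place of 1 the log2 changes were 2.86 for UGT2B17, 1.61 for UGT2B15, -1.64 for UGT2B11 and -3.56 for UGT2B28.

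EPZ against DMSO asked the same of EZH2 inhibition, with the same DMSO libraries as reference. UGT2B17 and UGT2B15 fell, UGT2B11 rose, and UGT2B28 did not pass the test. Mean FPKM ratios of EPZ to DMSO were 0.165 for UGT2B17, 0.256 for UGT2B15, 1.83 for UGT2B11 and 1.36 for UGT2B28. The log2 change was -0.49 for UGT2B17 (SE 0.106, limma adjusted p = 0.00324) and -0.74 for UGT2B15 (SE 0.119, limma adjusted p = 6.59e-04). UGT2B11 changed by 0.61 (SE 0.0987, limma adjusted p = 6.72e-04), and UGT2B28 had a value of 0.31 (SE 0.143, limma adjusted p = 0.0949). Without the first EPZ library the value of UGT2B28 was 0.47 and passed at an adjusted p of 0.0433 by limma. So 1 of the 4 rose and 2 fell, while 23.4% of tested genes were called higher and 32.4% lower. The medians were -0.094 for the 4 and -0.046 for all tested genes. At a pseudocount of 0.1 the fall of UGT2B17 was -1.75 and that of UGT2B15 was -1.72 on the log2 scale.

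The ENZ and EPZ comparisons share their DMSO libraries, so they are not independent of each other. Side by side, the log2 changes with ENZ and with EPZ were 1.84 and -0.49 for UGT2B17, 1.13 and -0.74 for UGT2B15, -0.88 and 0.61 for UGT2B11, and -1.45 and 0.31 for UGT2B28. By position, UGT2B17 and UGT2B15 lie at one end of the cluster, and UGT2B11 and UGT2B28 lie 662.767 and 743.315 kb from the start of UGT2B17. UGT2B10 and UGT2B7, which were not tested, lie between the pairs.

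**Figure D3:**
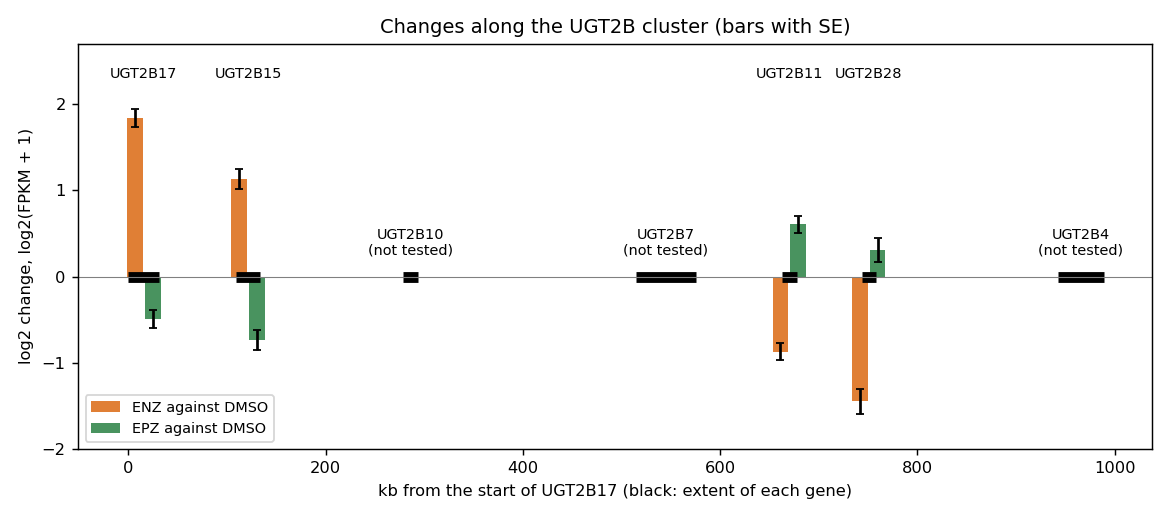
Log2 change on the log2(FPKM + 1) scale, with SE, for ENZ against DMSO and EPZ against DMSO, drawn at each gene's distance in kb from the start of UGT2B17. Black blocks mark the extent of each gene. UGT2B17 and UGT2B15 were higher with ENZ (1.84 and 1.13) and lower with EPZ (-0.49 and -0.74), and UGT2B11 and UGT2B28 were lower with ENZ (-0.88 and -1.45); the EPZ value of UGT2B28 did not pass the test.

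Combination was then set against DMSO. UGT2B15, UGT2B11 and UGT2B28 fell, to mean FPKM ratios of 0.210, 0.169 and 0.104. The ratio of UGT2B17 was 1.51. Log2 changes were -0.79 for UGT2B15 (SE 0.119, limma adjusted p = 1.47e-04), -1.08 for UGT2B11 (SE 0.0987, limma adjusted p = 3.63e-06) and -1.32 for UGT2B28 (SE 0.143, limma adjusted p = 1.26e-05). UGT2B17 had a value of 0.23 (SE 0.106) that did not pass, at a limma adjusted p of 0.0666. Without the first Combination library it was 0.34 and passed at an adjusted p of 0.0248 by limma, and after quantile normalization it was -0.093. None of the 4 rose and 3 fell, with 33.3% of tested genes called higher and 47.4% lower. The medians were -0.93 for the 4 and -0.15 for all tested genes.

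Adding EPZ6438 to ENZ was examined by setting Combination against ENZ. UGT2B17 and UGT2B15 fell, to mean FPKM ratios of 0.179 and 0.0647. Their log2 changes were -1.61 (SE 0.106, limma adjusted p = 6.72e-07) and -1.92 (SE 0.119, limma adjusted p = 4.62e-07). The 2 copies that were already low in ENZ did not pass: UGT2B11 had -0.20 (SE 0.0987, limma adjusted p = 0.0939) and UGT2B28 had 0.13 (SE 0.143, limma adjusted p = 0.44). UGT2B11 did pass with a pseudocount of 0.1, at -0.58 (limma adjusted p = 0.025), and after quantile normalization, at -0.25. The 2 falls and no rise among the 4 stand beside 45.5% of tested genes called lower and 25.3% called higher. The medians were -0.91 for the 4 and -0.15 for all tested genes.

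Adding ENZ to EPZ6438 was examined by setting Combination against EPZ. UGT2B17 rose, with a mean FPKM ratio of 9.16 and a log2 change of 0.72 (SE 0.106, limma adjusted p = 1.56e-04). The EPZ level that divides this ratio rests on 9 and 8 units, so the size of the ratio is imprecise. UGT2B15 had a ratio of 0.822 and a log2 value of -0.055 (SE 0.119, limma adjusted p = 0.691), which did not pass, and whose sign depended on the second EPZ library: without it the value was 0.060. The difference between the 2 genes was not tested, and the summed FPKM of the pair had a ratio of 2.74. UGT2B11 and UGT2B28 fell, to ratios of 0.0927 and 0.0763, with log2 changes of -1.68 (SE 0.0987, limma adjusted p = 2.77e-07) and -1.63 (SE 0.143, limma adjusted p = 4.28e-06). One of the 4 rose and 2 fell, and 29.2% of tested genes were called higher and 43.7% lower. The medians were -0.84 for the 4 and -0.11 for all tested genes.

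The interaction, Combination plus DMSO minus both single agents, asks whether the log2 change with both agents differs from the sum of the single-agent changes. It was negative for UGT2B15 at -1.19 (SE 0.169, limma adjusted p = 5.13e-04), for UGT2B17 at -1.12 (SE 0.149, limma adjusted p = 3.61e-04) and for UGT2B11 at -0.81 (SE 0.140, limma adjusted p = 0.00159). UGT2B28 had -0.18 (limma adjusted p = 0.52), which did not pass, and it was 0.35 with a pseudocount of 0.1. The 2 androgen-inactivating copies differed in how this value held on another scale. With a pseudocount of 0.1 the interaction of UGT2B15 was -1.76 (limma adjusted p = 0.00754) and that of UGT2B11 was -1.42 (limma adjusted p = 0.00385), but that of UGT2B17 was -0.61 and did not pass (limma adjusted p = 0.184). In ratios of mean FPKM, ENZ gave 8.45 for UGT2B17 without EPZ6438 and 9.16 with it, against 3.24 and 0.822 for UGT2B15. The 9.16 divides by an EPZ level that rests on 9 and 8 units. None of the 4 interactions was called higher and 3 were called lower, beside 9.99% and 29.6% of tested genes. The medians were -0.96 for the 4 and -0.12 for all tested genes.

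**Figure D4:**
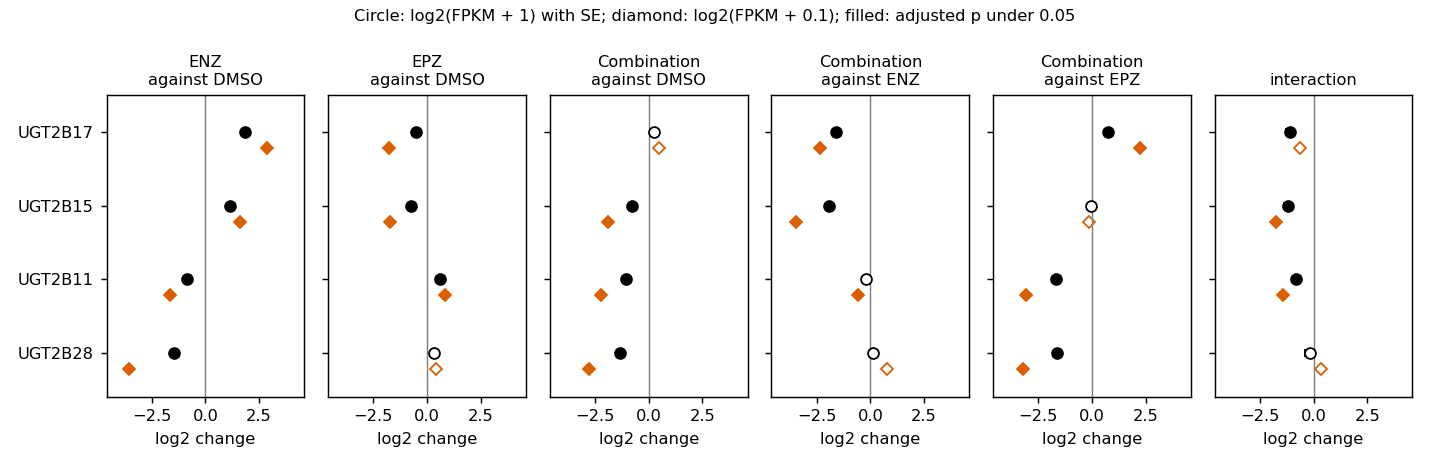
Log2 change of the 4 tested UGT2B genes in each comparison. Black circles are on the log2(FPKM + 1) scale, with SE bars no wider than about the circle, and orange diamonds are on the log2(FPKM + 0.1) scale; filled symbols have an adjusted p under 0.05. The UGT2B17 interaction passes at -1.12 on the first scale and does not at -0.61 on the second.

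Summing each pair of close copies makes a value less dependent on how shared reads were split within the pair. It is not free of that split, since the implied lengths of the copies differ, and reads left out or shared with other copies also bear on it. The copy that holds most of the 50-base stretches shared by UGT2B11 is the pseudogene UGT2B25P, with 22.4% of positions. UGT2B17 plus UGT2B15 came to 0.915 and 1.17 FPKM in Combination, 7.96 and 8.47 in ENZ, 0.279 and 0.483 in EPZ, against 1.68 and 1.68 in DMSO. No group overlaps another, and the order is ENZ, DMSO, Combination, EPZ. UGT2B11 plus UGT2B28 came to 0.589 and 0.417 FPKM in Combination, 0.486 and 0.709 in ENZ, 5.27 and 6.56 in EPZ, against 3.51 and 3.995 in DMSO. For this pair Combination and ENZ overlap, and DMSO and then EPZ lie above them.

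Within the first pair the balance between the copies differed by group. The FPKM ratio of UGT2B15 to UGT2B17 was 0.381 and 0.244 in Combination, 0.715 and 0.953 in ENZ, 2.14 and 4.59 in EPZ, against 2.25 and 2.08 in DMSO. Every library with ENZ, alone or with EPZ6438, had a ratio under 1, and every library without it had a ratio above 2. The EPZ ratios divide by 9 and 8 units of UGT2B17, which need not be whole fragments, so their sizes are imprecise. The ratio of UGT2B28 to UGT2B11 was 0.762 and 0.666 in Combination, 0 and 0.466 in ENZ, 0.788 and 0.954 in EPZ, against 1.15 and 1.198 in DMSO. Here both DMSO libraries lie above the 6 treated ones. In Combination and ENZ these ratios rest on at most 18 units of UGT2B11 and at most 9 of UGT2B28. How shared reads were split between copies bears on the ratios of both pairs.

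**Figure D5:**
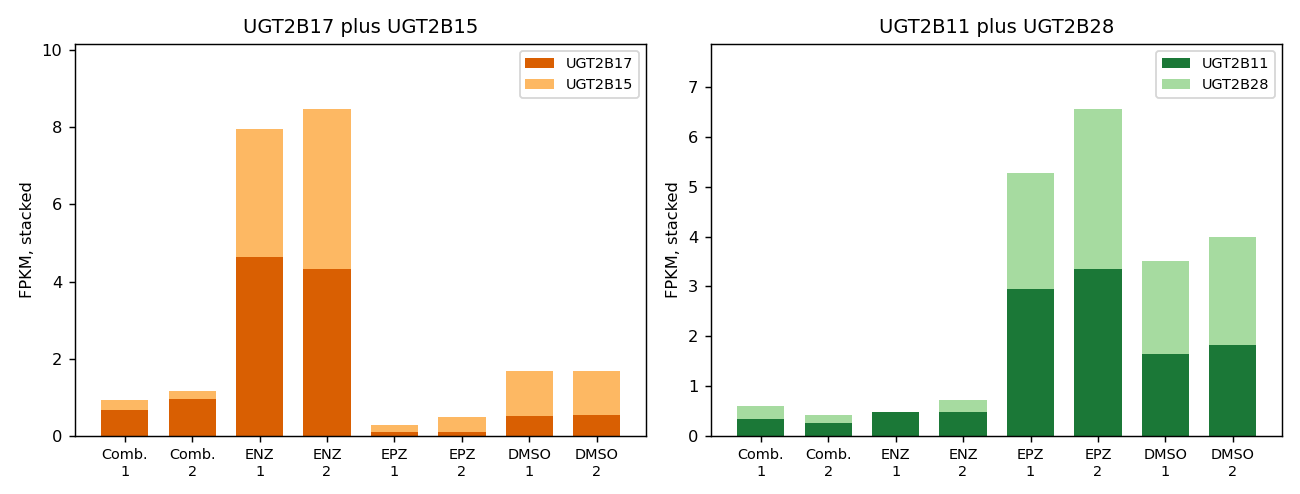
Stacked FPKM of each pair of close copies in the 8 libraries (Comb., Combination; the number is the replicate). UGT2B17 plus UGT2B15 peaks in ENZ at 7.96 and 8.47 FPKM, and UGT2B11 plus UGT2B28 peaks in EPZ at 5.27 and 6.56 FPKM. The vertical scales of the panels differ and levels are not compared between them.

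Across the 8 libraries the log2(FPKM + 1) values of UGT2B17 and UGT2B15 correlated at r = 0.881 and those of UGT2B11 and UGT2B28 at r = 0.964. UGT2B17 correlated at r = -0.684 with UGT2B11 and at r = -0.783 with UGT2B28, and UGT2B15 at r = -0.335 and r = -0.418 with the same genes. These are descriptions over 8 libraries that fall into 4 groups and share their treatments. Among 11276 other genes, those most like UGT2B17 were PREX1, a Rac exchange factor (r = 0.995), RAP2B, a small GTPase (r = 0.994), and NNT, a mitochondrial transhydrogenase (r = 0.991). PREX1 averaged 2.45 ± 0.136 FPKM in Combination, 12.3 ± 0.928 in ENZ, 0.591 ± 0.0723 in EPZ and 1.65 ± 0.106 in DMSO (SD, n = 2 each). Those most like UGT2B15 were KLHL42 (r = 0.996), OXCT1, an enzyme of ketone body use (r = 0.991), and ATAD1 (r = 0.989). The value of r takes no account of the size of a change. KLHL42 averaged 8.40 ± 0.138 FPKM in Combination, 14.2 ± 0.924 in ENZ, 8.58 ± 0.124 in EPZ and 10.5 ± 0.375 in DMSO (SD, n = 2 each), a narrower relative range than that of UGT2B15. Those most like UGT2B11 were GUCY1A3, a subunit of soluble guanylate cyclase (r = 0.996), PPAP2A, a lipid phosphatase (r = 0.992), and DSG2, a desmosomal cadherin (r = 0.991). GUCY1A3 averaged 2.29 ± 0.0416 FPKM in Combination, 2.84 ± 0.202 in ENZ, 14.1 ± 0.0540 in EPZ and 7.07 ± 0.0298 in DMSO (SD, n = 2 each). Genes most like UGT2B28 included TBRG1 (r = 0.995) and CNDP2, a dipeptidase (r = 0.994).

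Of 15 other UDP-glucuronosyltransferase genes, UGT8, which makes galactosylceramide, was the only one tested, and the other 14, the UGT1A genes among them, were listed at no more than 0.156 FPKM. The UGT1A genes share their last exons, and how reads shared between them were counted is not known, so a listed 0 is not a measure of absence. UGT8 averaged 9.51 ± 0.810 FPKM in Combination, 4.99 ± 0.504 in ENZ, 7.15 ± 0.125 in EPZ and 7.37 ± 0.413 in DMSO (SD, n = 2 each). It fell with ENZ by 0.49 on the log2 scale (limma adjusted p = 9.94e-04) and rose in Combination against DMSO by 0.33 (limma adjusted p = 0.00504).

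The UGT2B enzymes depend on UDP-glucuronate, and 10 of 11 genes of its supply and use were tested. With ENZ 4 rose and 4 fell, with EPZ 4 rose and 3 fell, and in Combination 2 rose and 4 fell, each against DMSO. Over all tested genes the shares called higher and lower were 27.9% and 28.8% with ENZ, 23.4% and 32.4% with EPZ, and 33.3% and 47.4% in Combination, and the counts of this and the following lists are read beside them. UGDH, which oxidises UDP-glucose to UDP-glucuronate, averaged 6.32 ± 0.259 FPKM in Combination, 12.01 ± 1.12 in ENZ, 21.5 ± 1.27 in EPZ and 15.5 ± 0.915 in DMSO (SD, n = 2 each). Its log2 change against DMSO was -0.34 with ENZ (limma adjusted p = 0.00518), 0.45 with EPZ (limma adjusted p = 0.00121) and -1.17 in Combination (limma adjusted p = 4.11e-07). HK2, a hexokinase at the head of glucose use, averaged 1.84 ± 0.369 FPKM in Combination, 6.87 ± 0.0533 in ENZ, 15.9 ± 0.233 in EPZ and 20.6 ± 0.325 in DMSO (SD, n = 2 each). HK2 fell in all 3 comparisons with DMSO, with log2 changes of -2.93 in Combination, -1.45 with ENZ and -0.35 with EPZ. Of the 10 genes, 8 were lower in Combination than in ENZ, where 45.5% of all tested genes were, and 6 were lower than in EPZ, where 43.7% were, with 1 higher in each.

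Sulfation is the other common conjugation of steroids, and 4 of its 7 listed genes were tested. With ENZ 3 rose and 1 fell, with EPZ none passed in either direction, and in Combination 2 rose, beside 27.9% of all tested genes called higher and 28.8% lower with ENZ and 33.3% higher in Combination. Those that rose with ENZ were SULT2B1, a hydroxysteroid sulfotransferase, by 0.43, PAPSS1, which makes the sulfate donor, by 0.36, and SULT1A1, a phenol sulfotransferase, by 0.25 on the log2 scale. STS, the steroid sulfatase, fell with ENZ by 0.21.

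Of 7 listed exporters of steroid conjugates, 3 were tested, and with EPZ all 3 rose, where 23.4% of all tested genes were called higher. ABCC4 averaged 32.0 ± 0.374 FPKM in Combination, 12.0035 ± 1.06 in ENZ, 62.1 ± 1.92 in EPZ and 37.1 ± 0.00888 in DMSO (SD, n = 2 each). ABCC5 averaged 25.1 ± 0.805 FPKM in Combination, 13.1 ± 1.06 in ENZ, 7.08 ± 0.248 in EPZ and 5.45 ± 0.117 in DMSO (SD, n = 2 each). With ENZ ABCC5 rose by 1.12 and ABCC4 and ABCC1 fell by 1.55 and 0.98 on the log2 scale, and the same 3 directions were called in Combination against DMSO.

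Of 12 listed transcription factors known to bind UGT2B promoters or enhancers, 7 were tested, with 3 higher and 3 lower in ENZ, 2 higher and 3 lower in EPZ, and 4 higher and 3 lower in Combination. Over all tested genes the shares higher and lower were 33.3% and 47.4% in Combination, 27.9% and 28.8% in ENZ, with 23.4% and 32.4% in EPZ. FOXA1, a forkhead factor of the luminal lineage, averaged 111 ± 6.47 FPKM in Combination, 107 ± 1.19 in ENZ, 104 ± 0.206 in EPZ and 94.5 ± 2.19 in DMSO (SD, n = 2 each). As a reading of androgen response, the 5 listed androgen-induced genes all fell with ENZ and all rose with EPZ, and 4 of the 5 fell in Combination against DMSO. KLK3, which encodes prostate-specific antigen, averaged 392 ± 12.2 FPKM in Combination, 224 ± 1.24 in ENZ, 2801 ± 1.5 in EPZ and 996 ± 26.3 in DMSO (SD, n = 2 each).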

How the data were processed

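The authors deposited 1 table of FPKM with a column per library. Per the submitters' processing notes the tools and build include STAR and hg38, without versions. The sources used here do not give the counting tool, annotation, strand setting or poly(A) selection. Per the labels' protocols, libraries were prepared with NEBNext Ultra RNA reagents. The table has 26475 rows, of which 26443 hold values, and 28 symbols had become dates. Depth was estimated from the steps between low FPKM in 1348 single-transcript genes, 64.6% of them within 5% of the median. The deposited FPKM were log2-transformed after adding 1, and 11874 genes averaging 1 FPKM or more were kept. limma 3.58.1 in R 4.3.3 fitted the 4 groups, with a variance trend and two-sided moderated tests (5.47 prior and 4 residual degrees of freedom). Benjamini-Hochberg adjustment covered all tested genes of each of 6 comparisons, at 0.05, and the fit was tested on simulated data. Python 3.11.15, Biopython 1.88 (transcript alignment) and GENCODE 29 served the descriptions, and promoter windows come from RefSeq. The 7 genes, the gene lists and the motifs were chosen with earlier results of these data known. Named genes are the 7, the 3 with the highest Pearson r to each tested one, and up to 4 per list with the largest called change against DMSO; a few that this rule takes are not reported here. Genes were left out of the similarity ranking where they are pseudogenes, small RNAs, clone-named, date-like or Y-linked. Replicate numbers were checked for pairing: deviations of same-numbered libraries correlated at -0.015 to 0.109. The correlation was 0.109 for Combination with ENZ and for ENZ with EPZ, 0.0987 for ENZ with DMSO, and lower for the other pairs of groups. No block was used, because the replicate numbers are not stated to mark a shared culture or day.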

Additional observations from a re-analysis of the deposited data

Results flagged for a closer look

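By the interaction term of limma on the log2(FPKM + 1) scale, the change with ENZ differed between cells with and without EPZ6438 for UGT2B15 and UGT2B11, and for UGT2B17 on that scale only. The interaction was -1.19 for UGT2B15, with log2 changes for ENZ of -0.055 in the presence of EPZ6438 and 1.13 in its absence, and -0.81 for UGT2B11, with changes of -1.68 and -0.88. It was -1.12 for UGT2B17, with changes of 0.72 and 1.84. The ratio of mean FPKM for ENZ, however, was 9.16 with EPZ6438 and 8.45 without it. The 9.16 divides by an EPZ level that rests on 9 and 8 units. On the log2(FPKM + 0.1) scale the UGT2B17 interaction was -0.61 and did not pass (limma adjusted p = 0.184).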

How the results depend on the processing

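Each value was recomputed with a pseudocount of 0.1, other expression filters, median-of-ratios scaling, quantile normalization, only the compared groups, a replicate block, and without each library in turn. Of 24 values for the 4 tested UGT2B genes, 18 were called, and 17 of these stayed called with the same sign under all 14 alternatives that gave a value; none of the 4 genes passes a mean of at least 5 FPKM, and the compared groups are already all 4 for the interaction. The exception was UGT2B17 in the interaction, at -0.61 with a pseudocount of 0.1. Several alternatives cannot move a log2 change or its sign and bear only on its adjusted p. These are no filter, only the compared groups, the replicate block, and leaving out a library from outside the comparison. Among values not called, UGT2B28 in the interaction became 0.35 with that pseudocount and UGT2B11 in Combination against ENZ became -0.58. Quantile normalization gave -0.25 for UGT2B11 in Combination against ENZ, -0.024 for UGT2B28 in the same comparison and -0.093 for UGT2B17 in Combination against DMSO. The cause of these changes was not tested. The median of all genes after quantile normalization was -0.023 in Combination against DMSO, 0.0073 against ENZ, -0.011 against EPZ and 0.011 in the interaction, beside -0.15, -0.15, -0.11 and -0.12 in the values reported. Leaving out 1 library leaves a lone library assumed to vary like the other groups, and gave 0.12 to 0.34 for UGT2B17 in Combination against DMSO, -0.018 to 0.27 for UGT2B28 in Combination against ENZ (the low end without the first ENZ library), 0.14 to 0.47 for UGT2B28 in EPZ against DMSO, and -0.17 to 0.060 for UGT2B15 in Combination against EPZ.

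Counts of genes called higher without a filter were 6633 in Combination against DMSO, 4956 against ENZ and 5480 against EPZ, beside 3957, 3001 and 3463 with it. With a mean of at least 5 FPKM, where fewer genes are tested, they were 1980 in ENZ and 1819 in EPZ against DMSO (main 3316 and 2775), 2147, 1676 and 1857 in Combination against DMSO, ENZ and EPZ, and 711 in the interaction (main 1186). The interaction count higher was 2454 after quantile normalization and 777 to 1447 without 1 library, lowest without the second EPZ library. The share of calls that were higher was 49.2% in ENZ against DMSO and 39.0% after median-of-ratios scaling. It was 35.7% in Combination against ENZ and 51.0% after quantile normalization. In the interaction it was 25.2%, then 49.3% after quantile normalization and 37.0% after median-of-ratios scaling. Both replicate numbers occur in every group, so the replicate block cannot move a log2 change, such as the 1.84 of UGT2B17 in ENZ against DMSO. It bears on the SE and adjusted p only. With it no call of a UGT2B gene changed, and 3401 genes were called higher in ENZ against DMSO. Summing FPKM over all 7 genes, whose steps imply unequal length scales, turned the ratio to 1.14 in EPZ against DMSO (UGT2B17 and UGT2B15 alone 0.165 and 0.256), 0.246 in Combination against EPZ (UGT2B17 alone 9.16) and 1.60 in ENZ against DMSO (UGT2B11 and UGT2B28 alone 0.281 and 0.0556). Depth limits the low values most, as for UGT2B28 in ENZ, with 0 and 9 units.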
